A study of Mus musculus with 8 samples.

Results

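The genes described here are 10 mouse sialyltransferases, the Golgi enzymes that add sialic acid to the ends of glycan chains. They were taken from a list of gene names, St3gal1 to St3gal6, St6gal1, St8sia1, St8sia4 and St8sia6, and all 10 were found among the 23278 genes of each of the 4 deposited tables. Histone deacetylase 3 (HDAC3) is an enzyme that works with the NCoR corepressors to remove acetyl groups from chromatin. The study sequenced RNA of thymocytes in which its gene was targeted for deletion. It asked how expression in double-positive thymocytes differs after that deletion. Its 8 samples fall into 4 groups of 2, all from C57BL/6 mice and all sorted as GFP+CD4+CD8+ thymocytes. WT DP1 and WT DP2 came from Hdac3+/+ mice, and Hdac3KO DP1 and Hdac3KO DP2 came from Hdac3F/F LCK-Cre+ mice, in which the Lck promoter drives Cre recombinase in cells of the T lineage. DP1 cells were CD5lo TCRblo, the earlier double-positive stage, and DP2 cells were CD5hi TCRbint, the stage after a T cell receptor signal. What the GFP reports, whether the control mice carried the Cre transgene, and the age of the mice are not given in the labels. The RNA went into the libraries as pools, and nothing states that the 2 libraries of a group came from separate mice. The p-values are those of the authors' test, whose settings are not given, and any spread between libraries that they use may be technical.

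Sialyltransferases are grouped by the bond they make and the chain they extend. ST3GAL1 and ST3GAL2 put an alpha-2,3-linked sialic acid on the core 1 O-glycans of mucin-type glycoproteins, ST3GAL3, ST3GAL4 and ST3GAL6 put it on lactosamine chains, and ST3GAL5 makes the ganglioside GM3. ST6GAL1 makes the alpha-2,6 linkage on N-glycans, and the ST8SIA enzymes join sialic acid to sialic acid, on gangliosides or proteins. In the thymus, cortical thymocytes are known for bare core 1 O-glycans that bind peanut agglutinin, and these are capped with sialic acid as the cells mature. Terminal sialic acid also sets which lectins can bind a thymocyte, since the alpha-2,6 linkage blocks binding of galectin-1.

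The deposited tables each compare a pair of groups and hold 1 FPKM (fragments per unit length of transcript, scaled to the mapped fragments of the library) per gene and group, so a spread between libraries cannot be shown and the depth is unknown. Each difference below is the log2 ratio of those FPKM, with a standard error (SE) that was derived here from the p-value of the authors' test, and a gene is called where the authors' q is 0.05 or less. Hdac3 itself was listed by the authors at 38.1 FPKM in WT DP1 and 11.7 in Hdac3KO DP1, and at 29.7 in WT DP2 and 15.4 in Hdac3KO DP2. It fell by 1.70 ± 0.42 (SE) on the log2 scale in DP1 (q = 0.000879 in the authors' deposited table) and by 0.95 ± 0.28 in DP2 (q = 0.0131 in the authors' deposited table). Hdac3 RNA thus remained in both knockout groups, and HDAC3 protein is not in these data. The 8 markers of double-positive thymocytes were all tested and summed to 4188, 5572, 2501 and 6210 FPKM, in the order WT and Hdac3KO at DP1, then WT and Hdac3KO at DP2, which every run of 4 values below follows. The WT DP2 sum is the low one. Rag1 alone stood at 1199, 2655, 671 and 3006 FPKM and was not called at either stage (q = 0.191 and 0.328 in the authors' deposited tables). In DP2, 4 of these 8 markers were called higher in Hdac3KO than in WT, beside 6.44% of all tested genes. Rag2 and the coreceptor genes Cd8b1 and Cd4 are among the 4. In DP1 0 of 8 were called, also 0 at an unadjusted p under 0.05, beside 23.6% of all tested genes called. Xist, the RNA that silences an X chromosome in females, stood at 0.0945, 208, 0.243 and 139 FPKM, and the Y-linked Kdm5d at 20.0, 0.264, 34.6 and 0.322. The WT and the knockout libraries thus differ in sex-linked RNA at both stages, and sex and genotype cannot be told apart here. All 10 sialyltransferase genes lie on autosomes, and the part of sex in their values was not tested. In bulk RNA a lower level can also mean fewer cells of a kind, which cannot be told apart from less RNA per cell.

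Per length of transcript, the polysialyltransferase St8sia4 was the leading sialyltransferase RNA of normal thymocytes, and St6gal1 took its place in Hdac3KO DP2 thymocytes. The 10 genes summed to 78.9 FPKM in WT DP1, 129 in Hdac3KO DP1, 187 in WT DP2 and 223 in Hdac3KO DP2. St8sia4 stood at 29.1, 49.1, 85.1 and 70.7 FPKM, which placed it at the top of the 10 in every group except Hdac3KO DP2. St6gal1 ranked at place 4 of 10 in WT DP1, at 2 in Hdac3KO DP1 and WT DP2, and at 1 in Hdac3KO DP2, an order of single values with no test between genes. At the other end, St3gal5 stayed between 0.587 and 1.46 FPKM and St8sia6 between a listed 0 and 0.279 FPKM, and neither was tested by the authors in any table. The remaining 6 members, St3gal1, St3gal2, St3gal3, St3gal4, St3gal6 and St8sia1, lay between 1.99 and 32.0 FPKM. The other 10 sialyltransferases of the mouse tables, such as the St6galnac family that adds sialic acid to the inner sugar of O-glycans, summed to 3.41, 3.23, 4.98 and 4.62 FPKM. Of these only St6galnac4 was tested in DP2, with 2.05 FPKM in WT and 1.51 in Hdac3KO (q = 0.622 in the authors' deposited table), and 0 of the 10 were tested in DP1.

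**Figure D1:**
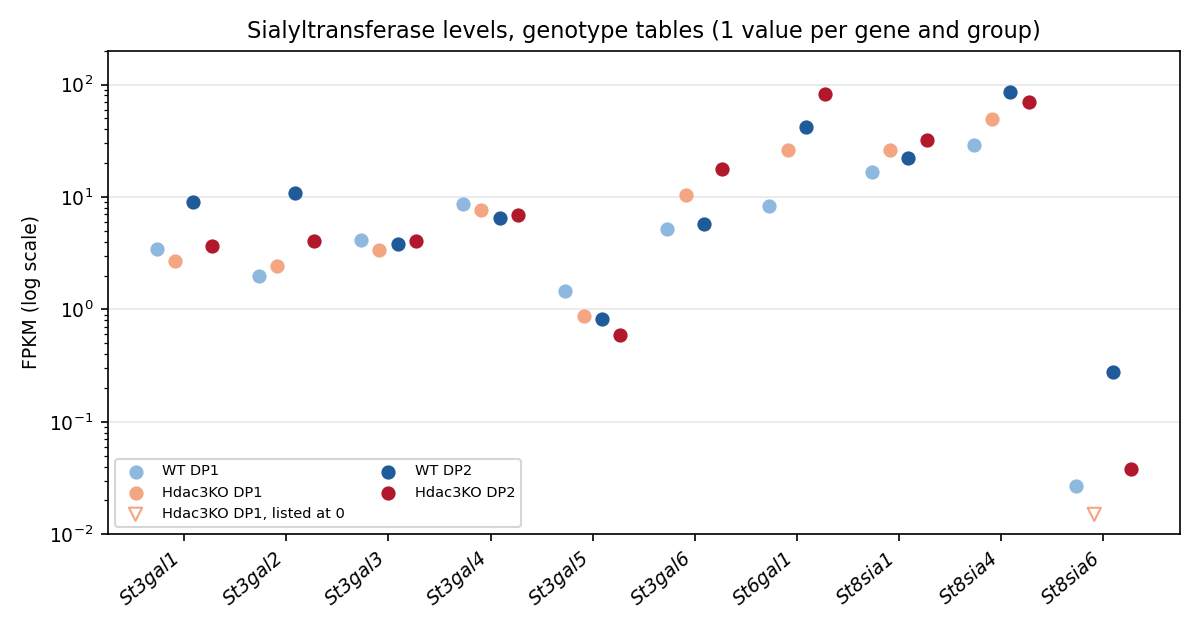
FPKM of the 10 sialyltransferase genes on a log axis, 1 point per gene and group from the authors' genotype tables, with a value listed at 0 drawn as an open triangle. St8sia4 and St8sia1 are among the 3 highest in every group, St6gal1 in every group except WT DP1, St3gal1 and St3gal2 stand apart in WT DP2 at 9.08 and 10.9 FPKM, and St3gal5 and St8sia6 lie lowest.

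In Hdac3KO DP1 thymocytes, 3 of the 8 tested members were called higher than in WT and 0 lower: St6gal1, St3gal6 and St8sia1. The authors' test called 23.6% of all 10511 tested genes in this comparison, with 10.7% of the tested genes higher and 12.9% lower, so 3 calls among 8 genes (37.5%) rest on few genes against a high background. The median log2 difference of the 8 tested members was 0.47, beside -0.10 over all tested genes. In DP2, 2 of the 8 rose, again St3gal6 and St6gal1, and 2 fell, St3gal1 and St3gal2, against a background of 10.8% of 10674 tested genes, 6.44% higher and 4.32% lower. The member median was 0.08 in DP2, close to the 0.10 over all tested genes. The split of all genes between higher and lower depends on the scaling: relative to the median gene with at least 10 FPKM in both groups, which lay at -0.11 in DP1 and 0.12 in DP2, 13.6% of tested genes were higher and 8.93% lower in DP1, and 4.40% were higher and 5.74% lower in DP2. The member calls were the same in number and direction on that scale. Both genotype tables hold the whole knockout and control groups of their own stage, so they share no library with each other.

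**Figure D2:**
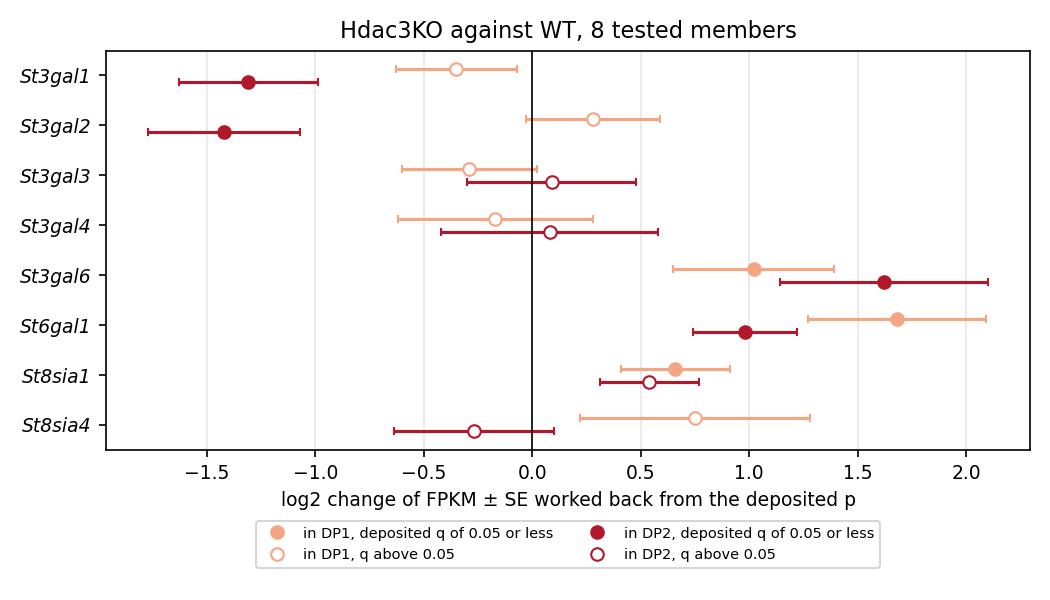
Log2 difference of FPKM, Hdac3KO against WT, of the 8 tested sialyltransferases in DP1 and DP2, with bars of 1 SE on each side worked back from the deposited p. Filled points have a deposited q of 0.05 or less: St6gal1 and St3gal6 lie to the right at both stages, St8sia1 in DP1, and St3gal1 and St3gal2 to the left in DP2.

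St6gal1 encodes the enzyme that makes nearly all alpha-2,6-sialylated N-glycans of lymphocytes, and it lies on the + strand at chr16:23224740-23360350 of mm10. Its levels were 8.27 FPKM in WT DP1, 26.4 in Hdac3KO DP1, 42.3 in WT DP2 and 83.3 in Hdac3KO DP2. WT DP1 is the low group and Hdac3KO DP2 the high one, and the knockout value lies above the control value at each stage. In DP1 St6gal1 rose 3.19-fold, a log2 change of 1.68 ± 0.41 (SE), with q = 0.000879 in the authors' deposited table. In DP2 it rose 1.97-fold, a log2 change of 0.98 ± 0.24, with q = 0.00134 in the authors' deposited table. The fold was smaller in DP2, but the difference between the stages (DP2 minus DP1, as in every such difference below), -0.70 ± 0.48 on the log2 scale with a 95% interval from -1.64 to 0.24, did not pass the normal test of that difference (Benjamini-Hochberg q = 0.433 over 10144 genes). With a normal p taken from the authors' deposited test statistic, Benjamini-Hochberg q is 0.000946 in DP1 and 0.102 in DP2, so the DP2 call depends on the authors' own p. St6gal1 is also abundant in B cells, and the 6 B cell markers summed to 1.20, 2.25, 3.68 and 1.91 FPKM, with 0 of 6 tested by the authors. The part of B cells in the St6gal1 values was not tested. An antisense gene, BC106179, shares 200 exon bases with St6gal1 and is not in the tables. The library kit marks strand, but whether the authors' counting used it is not given in the sources used here.

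The promoters of the 3 genes called higher in knockout DP1 are shown because the authors' test called these members there. St8sia4, at a log2 change of 0.75 in DP1 but not called, also has a promoter, which is not shown. The RefSeq promoter set used here is of GRCm38.p6, the mm10 build. A promoter is 300 bases, from 250 before to 50 after a start site. The set holds 11 promoters for 8 of the 10 members and has no entry for St3gal1 and St3gal2. For St6gal1 it lists 3 start sites on the + strand, at 23224740, 23226021 and 23290470 of chr16, all inside the gene span of the tables. St6gal1 is known to be transcribed from several promoters in different tissues, and gene-level FPKM cannot tell which start was used. The 250 bases before each start, chr16:23224490-23224739, chr16:23225771-23226020 and chr16:23290220-23290469, read as follows, with matches to any of 4 searched motifs in capitals.
St6gal1 outer start: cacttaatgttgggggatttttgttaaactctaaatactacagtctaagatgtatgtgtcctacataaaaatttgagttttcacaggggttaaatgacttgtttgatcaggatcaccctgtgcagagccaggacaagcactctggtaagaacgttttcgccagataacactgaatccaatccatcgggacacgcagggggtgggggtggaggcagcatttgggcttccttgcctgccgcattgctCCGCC
St6gal1 middle start: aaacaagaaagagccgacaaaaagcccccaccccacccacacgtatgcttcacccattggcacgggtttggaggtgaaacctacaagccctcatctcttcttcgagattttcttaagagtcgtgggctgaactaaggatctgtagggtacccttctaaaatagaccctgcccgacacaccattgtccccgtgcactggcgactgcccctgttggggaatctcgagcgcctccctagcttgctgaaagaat
St6gal1 inner start: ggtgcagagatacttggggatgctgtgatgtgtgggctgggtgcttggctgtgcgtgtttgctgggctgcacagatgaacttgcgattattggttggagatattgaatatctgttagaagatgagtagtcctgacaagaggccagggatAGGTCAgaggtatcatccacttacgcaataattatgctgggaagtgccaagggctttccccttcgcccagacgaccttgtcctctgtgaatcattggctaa
The motifs, searched on both strands, were AGGTCA, the core bound by nuclear receptors that recruit NCoR and HDAC3, CAGGTG, an E-box of E proteins, TGTGGT, the Runx core, and GGGCGG, the GC box. The outer start has 1 GC box, read as CCGCCC on this strand, which begins 5 bases upstream and whose last base, the start site itself, is not shown. The inner start has 1 AGGTCA, 101 bases upstream, and the middle start has no match. Over all 32851 RefSeq promoters of the same 300 bases, 16.3% hold AGGTCA, 20.2% CAGGTG, 16.8% TGTGGT and 35.7% GGGCGG. The St6gal1 windows have a GC content of 48.0%, 50.7% and 49.7%, below the median of 52.7% over all promoters.

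St3gal6, which caps lactosamine chains and contributes to selectin ligands, lies on the - strand at chr16:58470541-58523312. Its levels were 5.20 FPKM in WT DP1, 10.5 in Hdac3KO DP1, 5.70 in WT DP2 and 17.6 in Hdac3KO DP2. Both control values lie close to each other and both knockout values lie above them. In DP1 St3gal6 rose 2.02-fold, a log2 change of 1.02 ± 0.37 (SE), with q = 0.0283 in the authors' deposited table. In DP2 it rose 3.08-fold, a log2 change of 1.62 ± 0.48, with q = 0.0108 in the authors' deposited table. The stages differed by 0.61 ± 0.60 on the log2 scale, with a 95% interval from -0.57 to 1.78 (Benjamini-Hochberg q = 0.618, normal test). Both calls hold with a normal p from the deposited statistic (Benjamini-Hochberg q = 0.0356 and 0.00223). The annotation (GENCODE M21) gives the neighbouring gene Dcbld2, on the opposite strand, 1603 exon bases in common with St3gal6, but 0 of these bases lie inside the span that the tables use for St3gal6.

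RefSeq lists 2 start sites for St3gal6, at 58523426 and 58524253 of chr16. Both lie beyond the span that the tables use for St3gal6, which ends at 58523312, and the outer one also beyond the GENCODE M21 end at 58524243. The window of the inner start overlaps exons of other St3gal6 transcripts in GENCODE M21 and is described in words only. The 250 bases before the outer start, on the - strand at chr16:58524254-58524503, are shown for comparison with St6gal1.
St3gal6 outer start: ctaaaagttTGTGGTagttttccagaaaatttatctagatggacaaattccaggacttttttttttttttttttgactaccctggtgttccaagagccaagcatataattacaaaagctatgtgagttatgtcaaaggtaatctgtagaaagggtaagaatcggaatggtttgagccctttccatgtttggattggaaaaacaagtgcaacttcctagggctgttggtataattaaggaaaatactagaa
The inner window has 5 GC box matches, 4 of them before the start, at 164, 91, 86 and 52 bases upstream. The matches at 91 and 86 overlap, and the fifth lies 11 bases after the start. The outer window has no GC box and 1 Runx core, TGTGGT, 241 bases upstream. Their GC contents are 64.7% and 38.7%, above and below the 52.7% median of all promoters.

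St8sia1 encodes GD3 synthase, which adds a further sialic acid to the ganglioside GM3. It lies on the - strand at chr6:142814231-142964452. It stood at 16.6 FPKM in WT DP1, 26.2 in Hdac3KO DP1, 22.0 in WT DP2 and 32.0 in Hdac3KO DP2. Both knockout values lie above both control values. In DP1 it rose 1.58-fold, a log2 change of 0.66 ± 0.25 (SE), with q = 0.0392 in the authors' deposited table. The DP2 difference was 0.54 ± 0.23, with q = 0.112 in the authors' deposited table, and the stages differed by -0.11 ± 0.34 with a 95% interval from -0.78 to 0.55 (Benjamini-Hochberg q = 0.896, normal test). The DP1 call does not survive removal of the trend of the log2 change on transcript length, which reaches 0.45 at the 8991 bases of the longest St8sia1 transcript: the value becomes 0.21 (Benjamini-Hochberg q = 0.628). It is also lost with a normal p from the deposited statistic (Benjamini-Hochberg q = 0.237). For St6gal1 and St3gal6, with 4506 and 4123 bases, that trend is 0.06 and -0.01 in DP1. The antisense gene Gm7457 shares 149 exon bases with St8sia1 and stood at 1.03, 2.09, 1.75 and 2.33 FPKM.

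St8sia1 has 1 RefSeq start, at 142964452 of chr6, and the 250 bases before it, chr6:142964453-142964702, hold both a nuclear receptor core and a GC box.
St8sia1 start: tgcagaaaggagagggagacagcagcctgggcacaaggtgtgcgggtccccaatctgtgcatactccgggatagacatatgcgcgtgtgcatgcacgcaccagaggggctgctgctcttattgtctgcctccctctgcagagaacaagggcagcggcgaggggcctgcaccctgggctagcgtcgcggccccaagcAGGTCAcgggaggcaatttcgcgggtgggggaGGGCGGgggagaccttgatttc
AGGTCA lies 54 bases and GGGCGG 22 bases upstream, and the GC content of the window is 64.7%. AGGTCA is thus present in windows of St6gal1 and St8sia1 and in neither window of St3gal6, and CAGGTG was not found in any of the 11 member promoters. These matches describe letters in the windows only.

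St8sia4, the polysialyltransferase of immune cells, builds long sialic acid polymers on carriers such as neuropilin-2 and CCR7 and lies on the - strand at chr1:95587682-95667594. Its levels of 29.1, 49.1, 85.1 and 70.7 FPKM put the knockout above the control in DP1 and below it in DP2. Neither difference passed the authors' test: it was 0.75 ± 0.53 (SE) in DP1, with q = 0.314 in the authors' deposited table, and -0.27 ± 0.37 in DP2, with q = 0.731 in the authors' deposited table. The stages differed by -1.02 ± 0.65, with a 95% interval from -2.29 to 0.25 (Benjamini-Hochberg q = 0.387, normal test). St8sia4 has the longest transcript of the 10, 10027 bases, where the DP1 length trend is 0.50. Among its carriers, Ccr7, the receptor that guides T cells to lymph nodes and the thymic medulla, stood at 1.31, 5.07, 3.80 and 10.5 FPKM. It was called higher in Hdac3KO than in WT at both stages (q = 0.00207 and 0.00805 in the authors' deposited tables). Nrp2, the neuropilin-2 gene, stayed at 0.335, 0.553, 0.512 and 0.498 FPKM and was not tested.

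The O-glycan enzymes St3gal1 and St3gal2 went the other way from St6gal1 in DP2. St3gal1, on the - strand at chr15:67102875-67176882, is the main enzyme that caps core 1 O-glycans of maturing T cells. It stood at 3.43 FPKM in WT DP1, 2.68 in Hdac3KO DP1, 9.08 in WT DP2 and 3.67 in Hdac3KO DP2, so that WT DP2 is the single high group. In DP2 it was 2.48-fold lower in the knockout and fell by 1.31 ± 0.32 (SE) on the log2 scale (q = 0.00134 in the authors' deposited table). With a normal p from the deposited statistic the DP2 call is lost (Benjamini-Hochberg q = 0.249). In DP1 the difference was -0.35 ± 0.28 (q = 0.371 in the authors' deposited table). The difference between the stages was -0.95 ± 0.43, with a 95% interval from -1.79 to -0.12, which did not pass over all genes (Benjamini-Hochberg q = 0.198, normal test).

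St3gal2, whose enzyme acts on core 1 O-glycans and on gangliosides, lies on the + strand at chr8:110919865-110972497 and was likewise high in WT DP2 alone. Its levels were 1.99 FPKM in WT DP1, 2.42 in Hdac3KO DP1, 10.9 in WT DP2 and 4.08 in Hdac3KO DP2; the other 3 groups lie well below WT DP2. In DP2 it was 2.68-fold lower in the knockout and fell by 1.42 ± 0.35 (SE) on the log2 scale (q = 0.00134 in the authors' deposited table). With a normal p from the deposited statistic the DP2 call of St3gal2 is lost as well (Benjamini-Hochberg q = 0.0767). In DP1 its difference was 0.28 ± 0.31 (q = 0.539 in the authors' deposited table). Its genotype effect differed between the stages by -1.71 ± 0.47, with a 95% interval from -2.62 to -0.79, and of the 8 members tested for this difference it was the only one that passed (Benjamini-Hochberg q = 0.0316, normal test), against a background of 2.08% of 10144 genes. From the stage tables the same difference was -1.59 ± 0.62 (Benjamini-Hochberg q = 0.111), which did not pass. With every SE widened by a factor of 1.5, 0 of the 10144 genes passed and St3gal2 had an unadjusted p of 0.0146 (normal test).

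St3gal3 and St3gal4, which cap lactosamine chains of glycoproteins and glycolipids, were not called in any of the 4 comparisons. St3gal3, on the - strand at chr4:117932153-118134914, stood at 4.15, 3.39, 3.78 and 4.02 FPKM, with genotype differences of -0.29 ± 0.31 (SE) in DP1 and 0.09 ± 0.39 in DP2. St3gal4, on the - strand at chr9:35046579-35175987, stood at 8.64, 7.68, 6.53 and 6.89 FPKM, with differences of -0.17 ± 0.45 in DP1 and 0.08 ± 0.50 in DP2. For both genes the DP2 difference changes sign relative to the median gene, and the q in the authors' deposited tables lies between 0.529 and 0.953. An antisense gene, 4930581F22Rik, shares 412 exon bases with St3gal4 and stood at 1.26, 2.63, 2.45 and 2.04 FPKM. St3gal6 is thus the called member among the 3 lactosamine-type ST3GAL genes, whose summed level was 18.0 and 21.6 FPKM in WT and Hdac3KO DP1 and 16.0 and 28.5 FPKM in WT and Hdac3KO DP2.

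The ganglioside enzyme St3gal5 and the O-glycan enzyme St8sia6 were not tested by the authors in any table. St3gal5, the GM3 synthase gene on the + strand at chr6:72097613-72154570, was listed at 1.46, 0.875, 0.828 and 0.587 FPKM. St8sia6, on the - strand at chr2:13654936-13793520, was listed at 0.0270, 0, 0.279 and 0.0382 FPKM, with its highest value in WT DP2. No fold is given for either gene.

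From DP1 to DP2 in normal thymocytes, 4 of the 8 tested members rose and 0 fell: St3gal1, St3gal2, St6gal1 and St8sia4. The authors' test called 22.3% of 10851 genes in this comparison, 5.56% higher and 16.8% lower, so that most of its calls were lower in DP2. The median of the tested members was 0.65, beside -0.27 over all tested genes. Relative to the median gene, which lay at -0.33, 10.9% of genes were called higher and 6.51% lower, and the same number of members, 4, were called higher. In knockout thymocytes 1 of the 8 rose from DP1 to DP2, St6gal1, and 0 fell, against 6.43% of 10231 tested genes, 1.78% higher and 4.65% lower. The member median was 0.35 there, beside 0.01 over all tested genes. The stage tables use the same libraries as the genotype tables, normalised anew, so the stage values restate those libraries in another contrast.

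**Figure D3:**
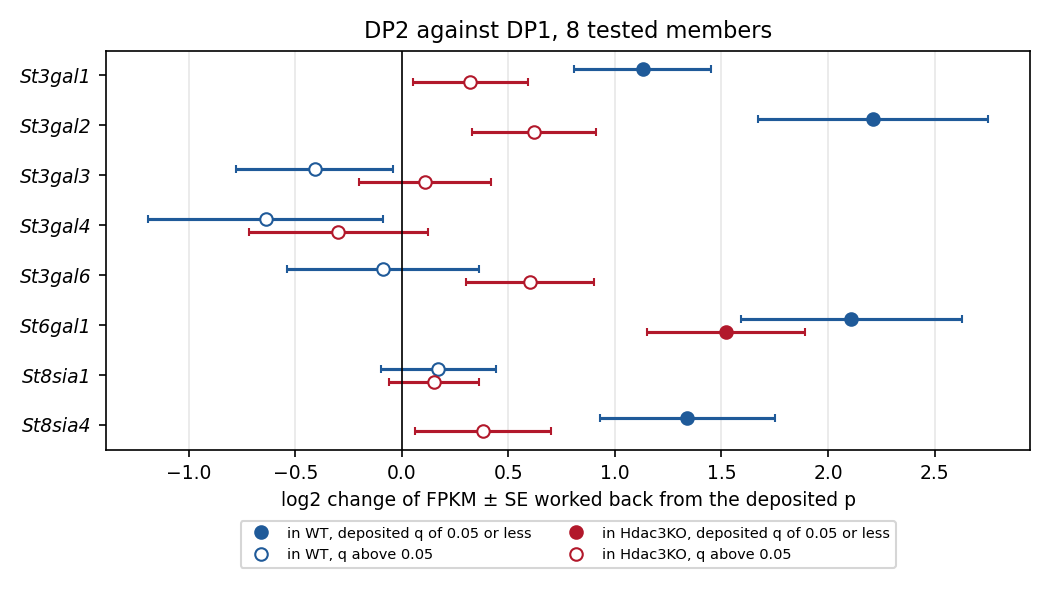
Log2 difference of FPKM, DP2 against DP1, of the 8 tested sialyltransferases in WT and Hdac3KO thymocytes, with bars of 1 SE on each side worked back from the deposited p. Filled points have a deposited q of 0.05 or less: St3gal1, St3gal2, St6gal1 and St8sia4 in WT, and St6gal1 in Hdac3KO.

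St3gal2 went from 2.26 FPKM in WT DP1 to 10.5 in WT DP2 in the stage table. It rose 4.62-fold, a log2 change of 2.21 ± 0.54 (SE), with q = 0.000835 in the authors' deposited table. In the knockout its values were 2.41 and 3.70 FPKM, a difference of 0.62 ± 0.29 with q = 0.257 in the authors' deposited table. St3gal1 rose 2.19-fold in WT, from 3.92 to 8.59 FPKM, a log2 change of 1.13 ± 0.32 with q = 0.00455 in the authors' deposited table. With a normal p from the deposited statistic that call is lost (Benjamini-Hochberg q = 0.343). In the knockout it stood at 2.67 and 3.32 FPKM, a difference of 0.32 ± 0.27 with q = 0.664 in the authors' deposited table. The WT stage is where both O-glycan sialyltransferases reached their highest level, and the knockout DP2 values stayed below that level.

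St6gal1 rose between the stages in both genotypes. In WT it went from 9.40 to 40.6 FPKM, 4.31-fold, a log2 change of 2.11 ± 0.52 (SE) with q = 0.000835 in the authors' deposited table. In the knockout it went from 26.4 to 75.6 FPKM, 2.87-fold, a log2 change of 1.52 ± 0.37 with q = 0.00151 in the authors' deposited table. St8sia4 rose 2.54-fold in WT, from 32.8 to 83.2 FPKM, a log2 change of 1.34 ± 0.41 with q = 0.00978 in the authors' deposited table. Its knockout values of 49.4 and 64.3 FPKM gave a difference of 0.38 ± 0.32 with q = 0.669 in the authors' deposited table. St6gal1 is therefore the 1 member called in all 4 comparisons, higher in the knockout at both stages and higher in DP2 in both genotypes. Ordered by level, its groups run from WT DP1 through Hdac3KO DP1 and WT DP2 to Hdac3KO DP2, and no table compares the middle pair.

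St3gal6 and St8sia1, both called higher in the knockout, were not called between the stages. St3gal6 stood at 5.88 and 5.54 FPKM in WT DP1 and DP2, a difference of -0.09 ± 0.45 (SE) that changes sign relative to the median gene, with q = 0.918 in the authors' deposited table. In the knockout it stood at 10.5 and 15.9 FPKM, a difference of 0.60 ± 0.30 with q = 0.297 in the authors' deposited table. St8sia1 stood at 18.8 and 21.1 FPKM in WT, a difference of 0.17 ± 0.27 with q = 0.700, and at 26.3 and 29.1 FPKM in the knockout, a difference of 0.15 ± 0.21 with q = 0.839, both from the authors' deposited tables. The lactosamine enzymes St3gal3 and St3gal4 had stage differences of -0.41 ± 0.37 and -0.64 ± 0.55 in WT, and of 0.11 ± 0.31 and -0.30 ± 0.42 in the knockout, with the lowest q at 0.417 in the authors' deposited tables. For these 2 genes no pair of groups that the tables compare differed beyond the error of the authors' test.

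The make-up of the sialyltransferase RNA shifted accordingly. St6gal1 held 10.5% of the summed FPKM of the 10 members in WT DP1, 20.4% in Hdac3KO DP1, 22.7% in WT DP2 and 37.4% in Hdac3KO DP2. St3gal1 and St3gal2 together stood at 5.42, 5.10, 20.0 and 7.75 FPKM. The ratio of St6gal1 to that sum was 1.53, 5.18, 2.12 and 10.8, so the ratio of these RNA levels was highest in the knockout groups. Neither enzyme amounts nor glycans are in these data. St8sia4 held 36.9%, 38.0%, 45.6% and 31.7%, and St8sia1 held 21.1%, 20.3%, 11.8% and 14.4%. St3gal6 held 6.59%, 8.14%, 3.05% and 7.88%. St3gal4 went from 10.9% in WT DP1 to between 3.09% and 5.94% in the other groups, while its own level did not pass the test in any comparison. These shares come from single group values and carry no error of their own.

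**Figure D4:**
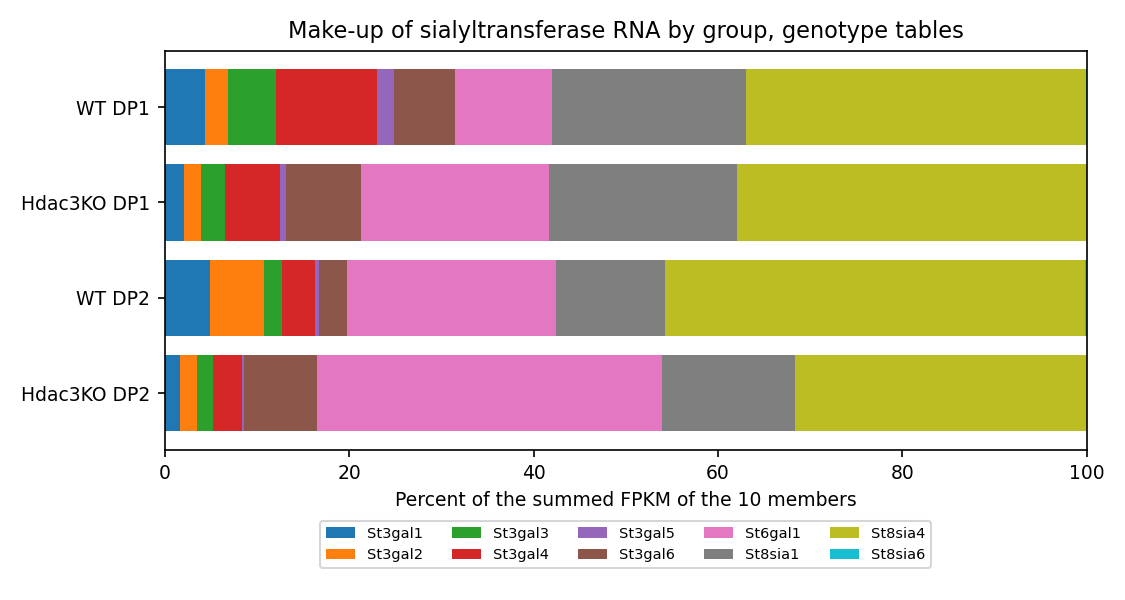
Share of each member in the summed FPKM of the 10 sialyltransferases, 1 bar per group, in percent, from the authors' genotype tables; St8sia6 is too low to be seen. The St6gal1 segment widens from 10.5% in WT DP1 to 37.4% in Hdac3KO DP2, where the St3gal1 and St3gal2 segments are 1.65% and 1.83%.

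Of the 10 genes listed for sialic acid synthesis, activation, transport and modification, 9 were tested in each comparison. In DP1 1 rose and 1 fell, in DP2 1 rose, in WT between the stages 1 fell, and in the knockout 0 were called by the authors' test, with 0 at an unadjusted p under 0.05. These counts of 2, 1, 1 and 0 among 9 stand beside 23.6%, 10.8%, 22.3% and 6.43% of all tested genes called, and are near that background. In the order DP1, DP2, WT stage and knockout stage, the list medians were -0.09, 0.02, -0.26 and 0.11, beside -0.10, 0.10, -0.27 and 0.01 over all tested genes. Cmah, which converts N-acetylneuraminic acid into the N-glycolyl form used by mouse cells, rose from 21.4 to 49.8 FPKM in knockout DP1, a log2 change of 1.22 ± 0.30 (SE, q = 0.000879 in the authors' deposited table). It rose from 33.2 to 52.5 FPKM in knockout DP2, a log2 change of 0.66 ± 0.23 (q = 0.0389 in the authors' deposited table). Nans, the sialic acid synthase, fell from 43.6 to 22.0 FPKM in knockout DP1, a log2 change of -0.99 ± 0.26 (q = 0.00207 in the authors' deposited table), and from 49.6 to 26.6 FPKM between the stages in WT, a change of -0.90 ± 0.29 (q = 0.0154 in the authors' deposited table). The Golgi carrier Slc35a1, which brings the activated sugar to the sialyltransferases, was not called, at 9.58, 12.2, 16.0 and 14.9 FPKM. Of the 5 genes for removal of sialic acid, 3 were tested: Neu3, a plasma membrane sialidase, fell from 16.3 to 9.15 FPKM in knockout DP1, a log2 change of -0.83 ± 0.27 (q = 0.0143 in the authors' deposited table), and 0 were called in the other 3 comparisons, where the authors' unadjusted p was under 0.05 for 1 gene each. The sialidase medians were -0.42 in DP1 and -0.06 in DP2.

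Among the enzymes that build the O-glycan cores, Galnt6 was called in all 4 comparisons. It starts mucin-type O-glycans, and 10 of the 15 genes listed for O-glycan initiation and cores were tested. Galnt6 stood at 6.19, 20.8, 26.3 and 43.9 FPKM, with WT DP1 low and Hdac3KO DP2 high, as for St6gal1. It rose in DP1 by 1.75 ± 0.43 (SE, q = 0.000879 in the authors' deposited table), in DP2 by 0.74 ± 0.23 (q = 0.0171 in the authors' deposited table), and between the stages by 1.84 ± 0.45 in WT and 0.94 ± 0.23 in the knockout (q = 0.000835 and 0.00151 in the authors' deposited tables). Of the same list, Galnt10 rose in DP2 from 14.6 to 26.7 FPKM, a log2 change of 0.87 ± 0.24, and Galnt2 fell between the stages in WT from 43.9 to 24.7 FPKM, a log2 change of -0.83 ± 0.28 (q = 0.00506 and 0.0211 in the authors' deposited tables). Of the 10 tested genes, 1 was called higher in DP1 and 2 in DP2. In the WT stage 1 was higher and 1 lower, and in the knockout stage 1 was higher. Over all tested genes 23.6%, 10.8%, 22.3% and 6.43% were called in that order, so these counts rest on few genes against that background. Galnt6 is among the calls each time. The list medians were 0.00, 0.17, -0.18 and -0.08 on the log2 scale for DP1, DP2, WT stage and knockout stage.

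N-glycan enzymes make the branches on which ST6GAL1 acts, and 14 of the 17 listed were tested. Man1a, a Golgi mannosidase that trims N-glycans, rose in knockout DP1 from 15.8 to 27.7 FPKM, a log2 change of 0.81 ± 0.25 (SE, q = 0.0103 in the authors' deposited table). Mgat1, which starts complex N-glycans, rose in knockout DP2 from 18.0 to 42.8 FPKM, a log2 change of 1.25 ± 0.31 (q = 0.00134 in the authors' deposited table). B3gnt2, which extends lactosamine chains, fell in knockout DP2 from 35.9 to 18.3 FPKM, a log2 change of -0.97 ± 0.27 (q = 0.00506 in the authors' deposited table). Between the stages Mgat1 fell in WT from 36.1 to 17.1 FPKM, a log2 change of -1.08 ± 0.27 (q = 0.000835 in the authors' deposited table). In the knockout stage 0 of the 14 were called, beside 6.43% of all tested genes, and 1 had an unadjusted p under 0.05 in the authors' test. The list medians were 0.13 in DP1 and 0.06 in DP2, beside -0.10 and 0.10 over all tested genes.

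The ganglioside core genes, which act in the same lipid pathway as ST3GAL5 and ST8SIA1, gave 0 calls in all 4 comparisons by the authors' test. Only 5, 5, 5 and 4 of them were tested in DP1, DP2, the WT stage and the knockout stage. Over all tested genes 23.6%, 10.8%, 22.3% and 6.43% were called in that order, so 0 calls among so few genes tell little. Ugcg, which makes the glucosylceramide that starts them, stood at 45.1, 52.5, 51.2 and 78.8 FPKM, with q = 0.569 in DP1 and 0.0806 in DP2 in the authors' deposited tables. B4galnt1, which makes the complex gangliosides, stood at 19.6, 21.6, 27.1 and 32.4 FPKM. At an unadjusted p under 0.05, B4galt5 was lower in the knockout in DP1 (1.45 against 0.792 FPKM, p = 0.0172) and in DP2 (1.26 against 0.610 FPKM, p = 0.0414), and Ugcg higher in DP2 (p = 0.0106), all in the authors' deposited tables. Between the stages 0 of 5 in WT and 2 of 4 in the knockout had an unadjusted p under 0.05. The list median was 0.14 in DP1 and 0.14 in DP2. Of the 8 fucosylation and sulfation genes that complete selectin ligands, 3 were tested. Tsta3, the GDP-fucose synthase, fell in knockout DP1 from 24.2 to 12.0 FPKM, a log2 change of -1.01 ± 0.31 (SE, q = 0.00862 in the authors' deposited table). Slc35c1, the GDP-fucose carrier, rose in knockout DP2 from 9.93 to 19.5 FPKM, a log2 change of 0.97 ± 0.26, and fell between the stages in WT from 19.6 to 9.41 FPKM, a log2 change of -1.06 ± 0.29 (q = 0.00338 and 0.00361 in the authors' deposited tables). The medians of the 3 tested genes were -0.31 in DP1 and 0.44 in DP2.

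Of the lectins that read sialylated or galactose-ended glycans, 5 of the 15 listed genes found in the tables were tested. Lgals1, whose product galectin-1 binds galactose-ended chains on thymocytes, fell in knockout DP1 from 71.8 to 34.6 FPKM, a log2 change of -1.06 ± 0.28 (SE, q = 0.00207 in the authors' deposited table). It fell between the stages in WT from 81.9 to 22.5 FPKM, a log2 change of -1.86 ± 0.46 (q = 0.000835 in the authors' deposited table). Lgals9, the galectin-9 gene, rose in knockout DP2 from 42.8 to 85.2 FPKM, a log2 change of 0.99 ± 0.24, and fell between the stages in WT from 123 to 41.1 FPKM, a log2 change of -1.58 ± 0.39 (q = 0.00134 and 0.000835 in the authors' deposited tables). The lectin medians were -0.34 in DP1, 0.03 in DP2 and -1.58 in the WT stage. In the knockout stage 0 of 5 lectins were called, beside 6.43% of all tested genes, and 1 had an unadjusted p under 0.05 in the authors' test. Of the 14 surface glycoproteins known to carry sialic acid, 11 were tested in DP1, where 2 rose and 1 fell, and 12 in DP2, where 5 rose and 2 fell, with medians of -0.08 and 0.21. Over all tested genes 23.6% were called in DP1, close to the 3 of 11 carriers, and 10.8% in DP2, below the 7 of 12. Between the stages 2 of 12 rose and 5 fell in WT, and 2 of 11 rose and 1 fell in the knockout. Over all tested genes 5.56% were called higher and 16.8% lower in the WT stage, and 1.78% higher and 4.65% lower in the knockout stage. In DP1 Ptprc, the CD45 gene, rose from 363 to 609 FPKM, a log2 change of 0.74 ± 0.28, and Nrp1, the neuropilin-1 gene, fell from 17.6 to 4.25 FPKM, a log2 change of -2.05 ± 0.50 (q = 0.0363 and 0.000879 in the authors' deposited tables). In DP2 Selplg, the gene of the selectin ligand PSGL-1, rose from 44.7 to 149 FPKM, a log2 change of 1.73 ± 0.43, and Cd44 fell from 4.37 to 0.721 FPKM, a log2 change of -2.60 ± 0.67 (q = 0.00134 and 0.00245 in the authors' deposited tables). Several of these carriers are themselves markers of the double-positive stage, whose summed level was lowest in WT DP2 at 2501 FPKM; the part of that difference in these results was not tested.

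**Figure D5:**
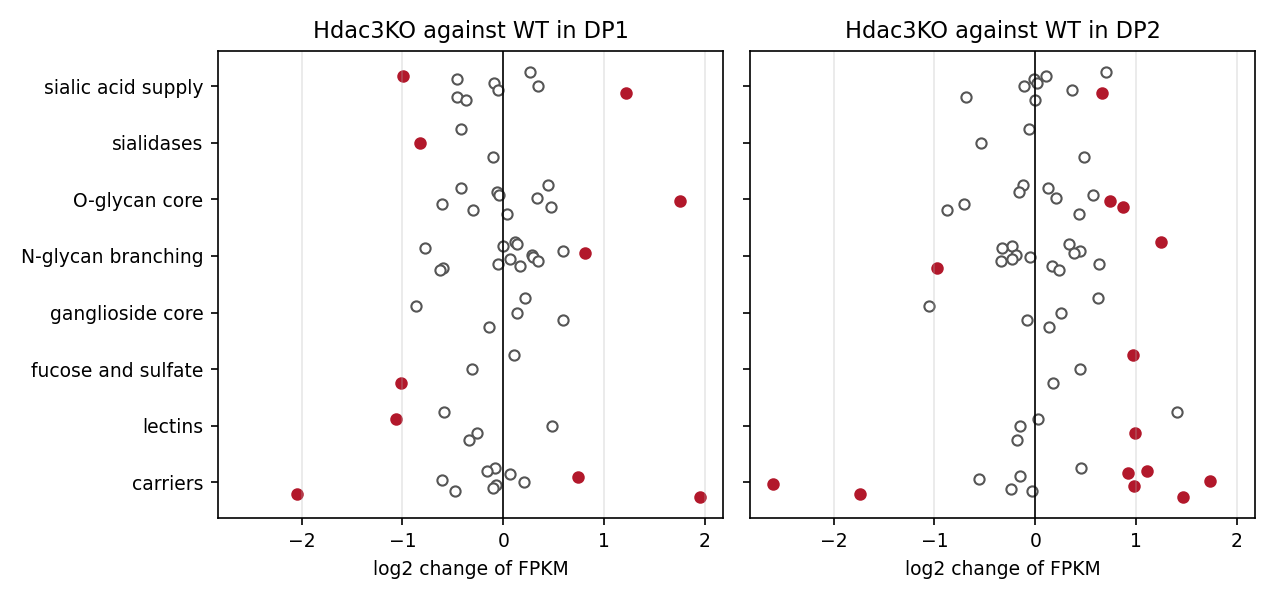
Log2 difference of FPKM, Hdac3KO against WT, of the tested genes of 8 lists around sialylation, in DP1 and in DP2; each point is a gene, shifted up or down within its list for legibility, and red points have a deposited q of 0.05 or less. The carriers hold 3 called points in DP1 and 7 in DP2, the sialic acid supply 2 and 1, and the ganglioside list 0 and 0. Over all tested genes 23.6% were called in DP1 and 10.8% in DP2.

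Markers of other cells were checked beside these results. The 6 listed double-negative markers summed to 89.3, 56.6, 237 and 66.3 FPKM, and most of the WT DP2 sum is Hhex at 221 FPKM, which fell in the knockout at both stages. Il2ra, the CD25 gene of that list, stood at 3.49, 19.6, 4.41 and 26.3 FPKM and rose in the knockout at both stages (q = 0.000879 and 0.00134 in the authors' deposited tables). The myeloid markers summed to 6.49, 13.8, 8.70 and 22.5 FPKM, and Itgam among them rose at both stages, from 2.40 to 9.58 and from 1.60 to 15.7 FPKM (q = 0.000879 and 0.00134 in the authors' deposited tables). Erythroid markers summed to between 1.28 and 2.73 FPKM, gamma-delta T and NK markers to between 0.508 and 1.77 FPKM with 1 or 2 of 5 listed at 0 in each group (Klrd1 and Ncr1), and thymic epithelial markers to between 6.32 and 12.7 FPKM. Genes at 0 in at least 1 group included Hbb-b1 and Hba-a1 of the erythroid list, Emr1 of the myeloid list and Krt5 of the epithelial list. The myeloid, erythroid, gamma-delta T and NK, and epithelial sums are higher in the knockout at both stages, as St6gal1, St3gal6 and St8sia1 are. Single genes hold most of some sums: Itgam of the myeloid sum in the knockout, and Alas2, at 0.676 and 2.51 FPKM in DP1, of the erythroid sum there. Other markers were mixed: Lyz2 stood at 0.666, 0.122, 2.80 and 2.50 FPKM and Cd68 at 2.98, 3.61, 3.43 and 3.43. In DP1 Epcam fell from 2.58 to 1.14 FPKM while Psmb11 rose from 3.21 to 7.30. The part of other cells in the sialyltransferase results was not tested.

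Genes whose 4 log2 differences lay closest to those of a member were found by Euclidean distance over the 4 comparisons. The search covered 7986 genes that were tested in all 4 tables and had at least 5 FPKM in at least 1 group of each. Nearest to St6gal1 were Ckb, the brain-type creatine kinase, at a distance of 0.57, Galnt6 at 0.68 and Trim26 at 0.91. Nearest to St3gal2 were Tox, a nuclear factor of developing T cells, at 0.51, the small nucleolar RNA Snora30 at 0.69 and Gpr174 at 0.76. Near to St3gal1 were Trim41 at 0.25 and Plcl2 at 0.45. The Tox differences were -0.09 in DP1, -1.32 in DP2, 1.99 between the stages in WT and 0.87 in the knockout, next to 0.28, -1.42, 2.21 and 0.62 for St3gal2. The 4 comparisons share libraries, so a small distance describes the same 4 groups and not 4 independent measures.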

How the data were processed

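RNA of 8 samples of sorted thymocytes, 2 per group, was sequenced after rRNA depletion with a strand-marking kit, per the labels' protocols. Per the submitters' processing notes, the tools were Cuffdiff 2.1.1, TopHat2 2.0.11 and Trimmomatic 0.32, with mm10 as genome build; the annotation and the settings are not given in the sources used here. The 4 deposited tables, 1 per comparison and normalised separately by the authors, hold an FPKM per gene and group, a log2 fold change, a test statistic (a score), a p-value and a q-value (Benjamini-Hochberg over the tested genes). They hold no counts, so no count test was run, and library depth is unknown.

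The log2 changes were computed from the deposited FPKM. Each SE is the size of the log2 change over the two-sided normal quantile of the deposited p, whose smallest value is 5e-05. At that floor the SE is an upper limit only where the deposited p itself is relied on. Read as a normal score, the deposited statistic would give a wider SE for St3gal1, St3gal2 and St6gal1 in genotype DP2. The same holds for St3gal2 in the WT stage, and the SE would be narrower for St6gal1 in both stage comparisons. Calls use the authors' q of 0.05 or less. The difference of the genotype effects was divided by its SE, combined from both tables in quadrature (normal, two-sided, Benjamini-Hochberg). A simulation run beforehand drew its noise from these same SEs, so it cannot show whether the SEs are right. Transcript lengths (GENCODE M21) matched 89.7% of genes, and the length trend is a lowess fit with a fraction of 0.3. All 10 members are described; of the other lists, the called genes with the largest change in each direction are named, at most 3 a list and comparison, Ccr7 and the untested or uncalled Nrp2, Slc35a1, Ugcg, B4galnt1 and B4galt5 being added after their values were seen. The 3 nearest genes are given for the 3 members with the smallest p in the genotype tables; some items that these rules name are not reported here. The members and lists were chosen with earlier results of these data known. Alternatives were other q thresholds, a minimum change, low-value filters, a pseudocount, other scalings, p-values from the deposited statistic and wider SEs. Python 3.11.15, pandas 2.3.3, scipy 1.17.1 and statsmodels 0.14.6 were used.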

Additional observations from a re-analysis of the deposited data

Results flagged for a closer look

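St3gal2 is singled out because its genotype effect differed between the stages by a test of the difference itself. The effect in DP2 minus the effect in DP1 was -1.71 ± 0.47 (SE) on the log2 scale, from 0.28 in DP1 and -1.42 in DP2 (Benjamini-Hochberg q = 0.0316 over 10144 genes, normal test). From the stage tables the difference was -1.59 ± 0.62 (Benjamini-Hochberg q = 0.111), and with SE multiplied by 1.5 the Benjamini-Hochberg q was 0.985, so neither passed. The SE of the main difference rests on the deposited p of the genotype tables. The deposited statistic would give a wider SE for St3gal2 in DP1 and in DP2. The 2 WT levels were 1.99 and 10.9 FPKM and the 2 knockout levels 2.42 and 4.08 FPKM in the authors' deposited tables. The markers of double-positive thymocytes also differed most at WT DP2, with a sum of 2501 FPKM against 4188 to 6210 in the other groups. Rag1 alone, not called in any comparison, makes up 671 FPKM of the WT DP2 sum and 1199 to 3006 FPKM of the other sums. The part of these markers in the result was not tested.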

How the results depend on the processing

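With q of 0.01, 1 member was called in genotype DP1 in place of 3. With normal p-values from the deposited statistic, 1 was called in genotype DP2 in place of 4 (1 higher, 0 lower). The test of the difference gave 0 in place of 1 from the stage tables and 0 with SE multiplied by 1.5, with an unadjusted p under 0.05 for St3gal1 and St3gal2 in the former and for St3gal2 in the latter. The other 38 recomputed counts stayed within 1.5 times. Members not called in the comparison changed sign as follows. Relative to the median gene, St3gal3 became -0.03 and St3gal4 -0.04 in genotype DP2, and St3gal6 0.24 in the WT stage. With the length trend removed, St3gal4 became 0.19 in genotype DP1, St3gal3 -0.02 and St3gal4 -0.01 in genotype DP2, St3gal3 0.04 and St3gal6 0.14 in the WT stage, and the differences of the genotype effect between the stages (DP2 minus DP1) became, for St3gal4 and St8sia1, -0.20 and 0.21. The cause was not tested.

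Over all genes, calls fell from 2478 to 1300 (q of 0.01), 1396 (length trend removed), 1212 (log2 change of at least 1) and 1544 (deposited statistic) in genotype DP1, and from 1148 to 618 (q of 0.01) and 706 (log2 change of at least 1) in genotype DP2. In the WT stage they went from 2421 to 1221, 1311, 1602 and 1386 in that order, and in the knockout stage from 658 to 434 (q of 0.01) and 431 (log2 change of at least 1). The difference had 211 calls, against 581 at q of 0.10, 369 relative to the median gene, 93 with the length trend removed and 0 with SE multiplied by 1.5. With the length trend removed, 60.2% of calls were higher in genotype DP1, 43.6% in genotype DP2 and 64.1% in the WT stage, against 45.2%, 59.8% and 24.9%.

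No paired analysis was possible because the tables hold 1 value per gene and group and carry no replicate numbers, and no replicate was left out for the same reason. A spread between libraries, and so the part of any 1 library, is not visible in these files.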
